A study of Mus musculus with 6 samples.

Results

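The colonic epithelium secretes chemokines, small proteins that bind to receptors on leukocytes and draw them into or keep them within the mucosa. The 10 genes described here are chemokines that gut epithelial cells are known to make: Cxcl1, Cxcl2 and Cxcl5, which bind CXCR2 and attract neutrophils; Cxcl9 and Cxcl10, interferon-induced ligands of CXCR3 on activated T cells; Cxcl16 and Cx3cl1, which are made as membrane-anchored proteins and are ligands of CXCR6 and CX3CR1; Ccl20, a ligand of CCR6; and Ccl25 and Ccl28, homing chemokines that bind CCR9 and CCR10. They were chosen by name and make up 10 of the 25067 gene entries measured. Earlier results of these data were known when they and the other gene lists below were chosen. The CXCR2 ligands and Ccl20 are known targets of NF-κB, which IL-1, TNF, IL-17 and Toll-like receptor signals activate, and Cxcl9 and Cxcl10 are known targets of interferon signalling. The membrane-anchored Cxcl16 and Cx3cl1 act both as adhesion molecules and, after cleavage by the proteases ADAM10 and ADAM17, as soluble attractants.

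RNA was sequenced from colon organoids, three-dimensional cultures of epithelial cells grown from crypts, of C57BL/6 mice aged 8 weeks. All 6 libraries carried the genotype Prkcif/fPrkczf/f;Villin-CreERT2, that is, floxed alleles of both atypical protein kinase C genes, Prkci and Prkcz, and a tamoxifen-dependent Cre driven by the Villin promoter, which is active in gut epithelium. At passage the organoids received 4-OH tamoxifen (4-OHT, 3 libraries) or ethanol as the vehicle (3 libraries), and RNA was taken after 3 days in a medium with WNT3A, EGF, Noggin and R-spondin 1. Vehicle libraries are labelled wild type although they hold the floxed alleles and the Cre, and no library combined 4-OHT with intact alleles or with the absence of Cre, so that loss of the kinases, activation of Cre and 4-OHT itself cannot be told apart. The labels do not say whether libraries of a group came from separate mice or cultures, so the p-values measure the spread between these libraries, which may be technical.

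Values are normalized counts, reads per gene divided by a size factor for each library, and the libraries held between 15804709 and 26957612 reads. Prkcz fell from 912 ± 37.9 to 281 ± 13.6 (SD, n = 3 per group), with a log2 fold change of -1.70 ± 0.08 (SE), and Prkci from 3520 ± 86.9 to 3021 ± 132 with -0.22 ± 0.05 (limma adjusted p = 3.2e-12 and 8.1e-04), with every 4-OHT library below every vehicle library for both. All 10 markers of colon epithelium were detected, with summed levels of 357157 to 366334 in vehicle and 477732 to 519076 in 4-OHT. Reads of other cells were scarce but uneven. The 11 measured small-intestinal markers summed to 118 to 133 in vehicle and to 162, 801 and 606 in 4-OHT replicates 1, 2 and 3. The 8 fibroblast markers summed to 104 to 124 in vehicle and to 171, 173 and 454 in those same libraries, and the 6 smooth muscle markers to 2.80 to 13.3 and to 14.5, 65.3 and 164. Leukocyte markers (10 genes) summed to 194 to 242 in vehicle and 161 to 206 in 4-OHT, with Cd3e at 0 in all libraries but 1, where it had 1 read. Most of that sum was Cd68, at 187 ± 23.8 in vehicle and 140 ± 14.4 in 4-OHT. The other myeloid markers were mixed. Csf1r rose from 8.81 ± 4.12 to 20.9 ± 7.60 (limma adjusted p = 0.030). Lyz2, without a read in vehicle, had 1, 6 and 25 reads in 4-OHT replicates 1, 2 and 3. S100a9 (means of 14.1 in vehicle and 10.9 in 4-OHT), S100a8 (2.31 and 1.04) and Itgam (3.26 and 2.83) were lower, with overlapping groups. The 5 measured endothelial markers summed to 40.0 to 56.7 and 35.1 to 56.0. Because 4-OHT replicates 2 and 3 stand apart in this way, the calls of the chemokines are also given with 4-OHT replicate 1 as the sole treated library, and named genes of the other chemokine, receptor, protease, signalling and cytokine lists that were called also passed there unless stated.

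The promoters of these genes were searched for short motifs like those that NF-κB and interferon-induced factors are known to bind. RefSeq promoter entries of build GRCm38.p6 matched 8 of the 10 genes, with 9 start sites in all since Ccl25 has 2. Cxcl16 and Cxcl5 had no entry and were not searched. The 250 bases before each start were searched on both strands for an NF-κB-like motif, GGNNNTTCC, an interferon-response-like motif, GAAANNGAA, and the letters TATAAA. The motifs were chosen after the sequences had been seen. The NF-κB-like motif stood in 6 of the 9 promoters, against 15.7% of a set of 32851 promoters of the same length. The interferon-like motif stood in 2 (7.13% of that set) and TATAAA in 3 (12.4%). The set did not cover every chromosome. The neighbouring genes Cxcl1 and Cxcl2, the chemokine Cxcl10 and the falling gene Ccl28 are printed here, 5′ to 3′ on the strand of the gene and ending at the base before the start, because they show the range from paired motifs to none; capitals mark motif matches.
Cxcl1 (chr5:90890995-90891244, plus strand): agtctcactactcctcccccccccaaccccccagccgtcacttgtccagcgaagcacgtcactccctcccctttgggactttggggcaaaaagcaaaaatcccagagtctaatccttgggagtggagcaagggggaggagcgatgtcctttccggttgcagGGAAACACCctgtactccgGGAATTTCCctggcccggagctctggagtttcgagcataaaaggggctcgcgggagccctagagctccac
Cxcl2 (chr5:90903649-90903898, plus strand): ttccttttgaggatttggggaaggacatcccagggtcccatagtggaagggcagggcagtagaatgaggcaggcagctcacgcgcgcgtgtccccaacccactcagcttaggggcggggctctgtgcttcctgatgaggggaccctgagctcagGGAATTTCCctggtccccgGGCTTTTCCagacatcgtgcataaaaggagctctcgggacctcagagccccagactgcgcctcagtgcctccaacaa
Cxcl10 (chr5:92348890-92349139, minus strand): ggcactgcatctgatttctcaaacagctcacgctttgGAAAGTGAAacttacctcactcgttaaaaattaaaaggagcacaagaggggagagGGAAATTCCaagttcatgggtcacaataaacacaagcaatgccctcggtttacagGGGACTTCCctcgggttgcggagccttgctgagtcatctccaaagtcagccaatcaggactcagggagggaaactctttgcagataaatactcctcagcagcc
Ccl28 (chr13:119623569-119623818, plus strand): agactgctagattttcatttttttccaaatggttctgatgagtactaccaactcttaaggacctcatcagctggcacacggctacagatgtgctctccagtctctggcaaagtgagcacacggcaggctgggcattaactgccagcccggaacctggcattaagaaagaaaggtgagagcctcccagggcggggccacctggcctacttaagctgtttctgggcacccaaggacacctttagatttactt
In Cxcl1 the NF-κB-like matches began 89 and 70 bases before the start and in Cxcl2 96 and 77 bases before it. The spacing was the same, but the order of the matches was not. Both genes held GGAATTTCC, as the nearer match to the start in Cxcl1 and the farther in Cxcl2. The other match was GGAAACACC in Cxcl1 and GGCTTTTCC in Cxcl2. Cxcl10 had an interferon-like match 213 bases before its start and NF-κB-like matches at 158 and 103 bases, and Cxcl9 had 1 interferon-like and 2 NF-κB-like matches. Ccl20 and Cx3cl1 had a single NF-κB-like match each, beginning 80 and 71 bases before the start. Ccl28 and the first start of Ccl25 held none of the 3 motifs in this window, and the second start of Ccl25 held only TATAAA. A match describes the letters and is not evidence of binding, and no match says only that these letters were not found in this window.

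**Figure D1:**
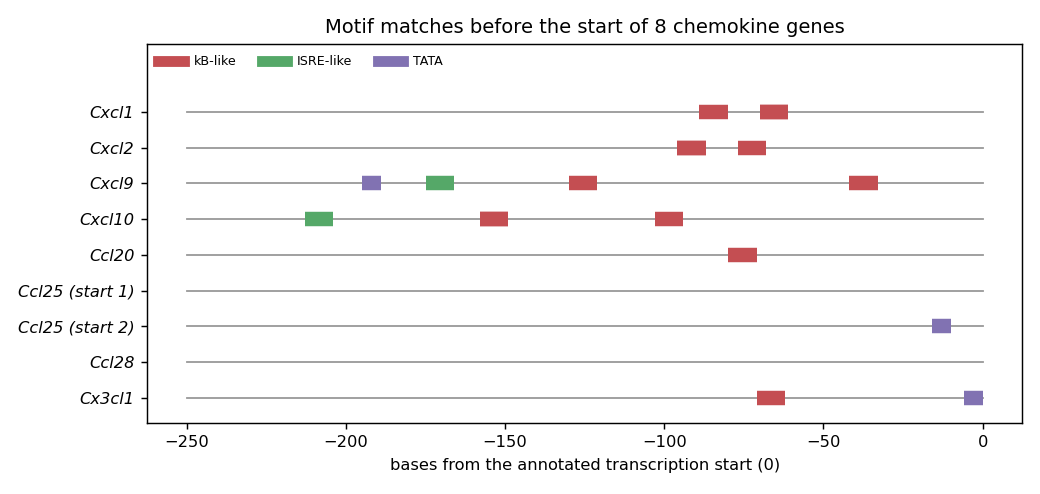
Each line is the stretch of 250 bases before the annotated transcription start (0 on the x axis, in bases) of a chemokine promoter, and the boxes are matches of the NF-κB-like (red), interferon-like (green) and TATA (purple) motifs. The paired NF-κB-like matches of Cxcl1 and Cxcl2 lie within 100 bases of the start, and Ccl28 and the first start of Ccl25 have no match.

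The chemokines did not move together after 4-OHT. Transcripts of Cxcl16 rose 2.01-fold and those of Cxcl1 1.73-fold, while those of Ccl28 fell, being 1.68-fold higher in vehicle than in 4-OHT. Of the 10 genes, 8 reached a mean normalized count of 10 and were tested, and 3 of these 8 passed the threshold of 0.05 on the limma adjusted p, 2 higher and 1 lower in 4-OHT. That share of 37.5% stands beside 43.6% of all 13210 genes tested that passed, 22.7% higher and 21.0% lower, so that a call was no more frequent among the chemokines than among genes at large. The values of both groups did not overlap for 4 of the 8, against 52.1% of all genes tested, with Cxcl16, Cxcl1 and Cx3cl1 higher and Ccl28 lower in each 4-OHT library. The median log2 fold change of the 8 genes was 0.03, and that of all genes tested was -0.0054. RNA from whole cultures cannot tell a change in the RNA made per cell from a change in the number of cells that make it.

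**Figure D2:**
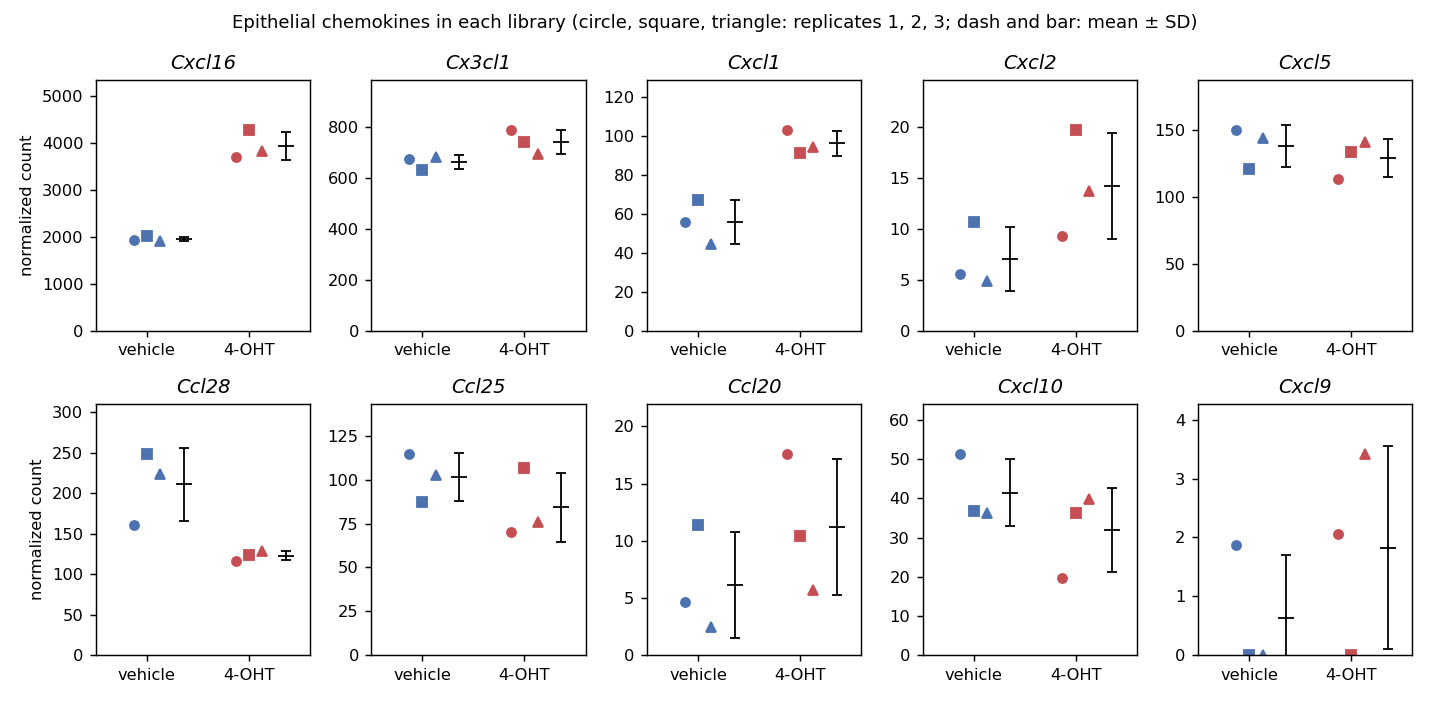
Normalized counts (y axis, linear from 0, a separate scale per gene) of the 10 chemokines in vehicle (blue) and 4-OHT (red) libraries, with circles, squares and triangles for replicates 1, 2 and 3 and a dash with a bar for the mean ± SD of 3 libraries. Cxcl16 and Cxcl1 lie higher and Ccl28 lower in every 4-OHT library, and the lower SD bar of Cxcl9 in vehicle is cut off at 0.

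Cxcl16, the membrane-anchored ligand of CXCR6, an adhesion and retention signal for tissue-resident lymphocytes, was the most abundant of the 10 chemokines. Its normalized counts were 1930, 2008 and 1913 in vehicle replicates 1, 2 and 3 and 3702, 4273 and 3825 in 4-OHT replicates 1, 2 and 3. The 3 vehicle libraries lay close together and every 4-OHT library was far above them, the highest being replicate 2. The mean rose from 1950 ± 50.4 to 3933 ± 300.5 (SD, n = 3 per group), a 2.01-fold increase with a log2 fold change of 1.01 ± 0.05 (SE) and a 95% confidence interval of 0.90 to 1.12 (limma adjusted p = 2.8e-11). A higher log2 fold change was found for 274 of the 13210 genes tested (2.07%). These values rest on 1580 to 4122 reads per library, and counting error alone would give an SE of 0.023 on the log2 scale. The increase was as clear in 4-OHT replicate 1 taken alone, with a log2 fold change of 0.92 and a limma adjusted p of 1.6e-08. In the GENCODE vM21 annotation Cxcl16 shares 552 of its 2699 exon bases with Zmynd15 on the opposite strand, and whether reads were assigned by strand is not given in the sources used here. Zmynd15 had far fewer reads, with 97.8 ± 16.7 in vehicle and 167 ± 9.22 in 4-OHT (log2 fold change 0.78 ± 0.15 SE, limma adjusted p = 2.5e-04).

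Cx3cl1 (fractalkine), the other membrane-anchored chemokine and the ligand of CX3CR1 on mononuclear phagocytes, showed at most a small difference. Its normalized counts were 674, 633 and 684 in vehicle and 789, 742 and 694 in 4-OHT, for means of 664 ± 26.7 and 742 ± 47.5. The groups did not overlap, but 4-OHT replicate 3 stood only just above the highest vehicle library. The log2 fold change of 0.16 ± 0.07 (SE), with an interval of 0.01 to 0.31, did not pass after adjustment (limma adjusted p = 0.072). It passed without 4-OHT replicate 3 (log2 fold change 0.21, limma adjusted p = 0.041) and with 4-OHT replicate 1 alone (0.25, limma adjusted p = 0.049). Its interval lay below that of Cxcl16, whose lower bound was 0.90, although the difference between the genes was not tested.

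Among the CXCR2 ligands, Cxcl1, the neutrophil attractant also known as KC, rose. It had normalized counts of 56.0, 67.4 and 44.8 in vehicle and 103, 91.2 and 94.5 in 4-OHT. Every 4-OHT library exceeded every vehicle library, and the vehicle libraries were the more spread. The mean changed from 56.1 ± 11.3 to 96.3 ± 6.26 (SD, n = 3 per group), with a log2 fold change of 0.79 ± 0.19 (SE), a 95% confidence interval of 0.40 to 1.18 and a limma adjusted p of 0.0019. Cxcl1 was measured with 37 to 100 reads per library, which by counting error alone gives an SE of 0.14. A higher log2 fold change was found for 468 of the genes tested (3.54%). In 4-OHT replicate 1 alone its log2 fold change was 0.89 (limma adjusted p = 0.020).

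Cxcl2 (MIP-2), whose gene is the next chemokine gene after Cxcl1 on chromosome 5, pointed the same way without passing. Its normalized counts were 5.60, 10.6 and 4.84 in vehicle and 9.30, 19.7 and 13.7 in 4-OHT. The groups overlapped, since vehicle replicate 2 lay above 4-OHT replicate 1. The log2 fold change was 0.93 ± 0.47 (SE), with a 95% confidence interval of -0.05 to 1.92 and a limma adjusted p of 0.12, and it rested on 4 to 19 reads per library. A difference as large as that of Cxcl1 lies within this interval, so the depth did not resolve whether Cxcl2 changed. With a mean of 10.6 it was only just inside the limit of 10 for testing.

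Cxcl5 (LIX), the remaining CXCR2 ligand of the group, had normalized counts of 150, 121 and 144 in vehicle and 114, 134 and 141 in 4-OHT. The libraries of both groups were interleaved, and the means were 138 ± 15.6 and 129.5 ± 14.2. Its log2 fold change was -0.09 ± 0.14 (SE; 95% confidence interval -0.39 to 0.20; limma adjusted p = 0.63). The upper bound of 0.20 for Cxcl5 lies below the lower bound of 0.40 for Cxcl1, although both bind the same receptor and their genes lie in the same stretch of chemokine genes on chromosome 5. The difference between these genes was not tested. In RefSeq's order that stretch runs Cxcl5, Ppbp, Pf4, Cxcl3, Cxcl15, Cxcl1 and Cxcl2. Ppbp, whose product is processed into another CXCR2 ligand and is best known from platelets, had 5.60, 5.67 and 4.84 normalized counts in vehicle and 17.6, 24.9 and 18.2 in 4-OHT. It rose by 1.72 ± 0.42 (SE) on the log2 scale (limma adjusted p = 0.0023), from 4 to 24 reads per library, and had too low a mean to be tested with 4-OHT replicate 1 alone. Cxcl3 had 0 to 3 reads in vehicle and 1 to 8 in 4-OHT and was not tested.

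Ccl28, the mucosal chemokine that draws CCR10-bearing IgA plasmablasts to the colon, was the only tested chemokine that fell past the threshold. It had normalized counts of 160, 248 and 224 in vehicle and 117, 123 and 129 in 4-OHT. The 4-OHT libraries lay in a narrow band below all vehicle libraries, and vehicle replicate 1 was the lowest of its group. Means were 211 ± 45.3 and 123 ± 5.96 (SD, n = 3 per group). The log2 fold change was -0.75 ± 0.15 (SE; 95% confidence interval -1.06 to -0.44; limma adjusted p = 3.3e-04), and 561 of the genes tested (4.25%) had a lower value. There were 113 to 350 reads per library, for an SE of 0.095 from counting error alone. With 4-OHT replicate 1 alone the log2 fold change was -0.82 (limma adjusted p = 0.0048).

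The other homing chemokine, Ccl25 (TECK), which binds CCR9 and is best known from the small intestine and thymus, did not pass. Its normalized counts were 115, 87.3 and 103 in vehicle and 70.3, 107 and 76.3 in 4-OHT. Replicates 1 and 3 of 4-OHT were below all vehicle libraries, whereas replicate 2 was within the vehicle range. Small-intestinal markers summed to 801 in replicate 2, but also to 606 in replicate 3, against 162 in replicate 1. The log2 fold change of 4-OHT against vehicle was -0.28 ± 0.18 (SE; 95% confidence interval -0.66 to 0.10; limma adjusted p = 0.22), and without 4-OHT replicate 2 it was -0.46 (limma adjusted p = 0.057). The part of small-intestinal RNA in this value was not tested. Ccl25 shares 56 of its 1555 exon bases with Elavl1 on the opposite strand, an abundant gene whose log2 fold change was -0.03.

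**Figure D3:**
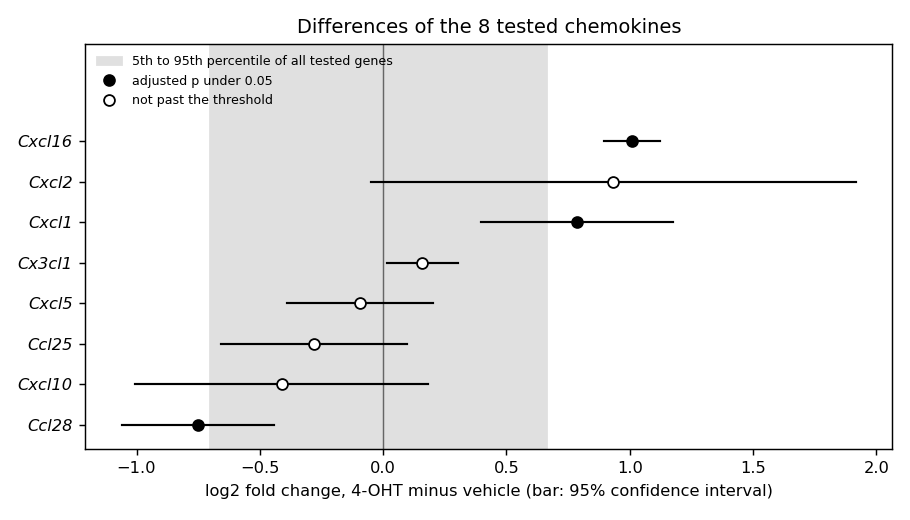
Log2 fold change of 4-OHT against vehicle on the log2(normalized count + 1) scale (x axis) for the 8 tested chemokines, with bars for the 95% confidence interval, filled points for limma adjusted p under 0.05, and grey shading from the 5th to the 95th percentile of all genes tested (-0.70 to 0.67). Cxcl16 (1.01), Cxcl1 (0.79) and Ccl28 (-0.75) have filled points that lie outside the shading.

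The ligands of CXCR3 were scarce. Cxcl10 (IP-10) had normalized counts of 51.3, 36.9 and 36.3 in vehicle and 19.6, 36.3 and 39.8 in 4-OHT. A single library, 4-OHT replicate 1, lay well below the rest, and the other 5 were close together apart from the higher vehicle replicate 1. The log2 fold change was -0.41 ± 0.28 (SE; 95% confidence interval -1.004 to 0.18; limma adjusted p = 0.26). Its size depended on that library. Without 4-OHT replicate 1 it was -0.11 (limma adjusted p = 0.79), and with replicate 1 alone it was -1.02 (limma adjusted p = 0.035). Cxcl9 (MIG) had 2, 0 and 0 reads in vehicle and 2, 0 and 3 in 4-OHT, none above the 3 reads that a count of 0 still allows, so no difference was detectable at this depth. Ccl20, the ligand of CCR6 best known from the epithelium over lymphoid follicles, had normalized counts of 4.66, 11.3 and 2.42 in vehicle and 17.6, 10.4 and 5.69 in 4-OHT, from 2 to 17 reads per library. These ranges overlapped, and with a mean of 8.68 Ccl20 was just outside the limit for testing. Without any filter limma gave it a log2 fold change of 0.85 with an adjusted p of 0.36.

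Per kilobase of exon the 10 chemokines differed widely in level, and a single gene dominated. In vehicle Cxcl16 stood at 723 ± 18.7 normalized counts per kilobase, followed by Cx3cl1 at 188 ± 7.55 and Cxcl5 at 87.8 ± 9.92, 3 genes whose ranges over libraries did not touch. Below these, Ccl25 (65.4 ± 8.87), Cxcl1 (58.8 ± 11.9) and Ccl28 (56.4 ± 12.1) overlapped and their order was not resolved. Cxcl10 was next at 27.3 ± 5.59, and Ccl20 (4.32 ± 3.27) and Cxcl2 (3.78 ± 1.70) overlapped again, with Cxcl9 at 0.215 at the bottom.

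After 4-OHT the order in the middle of this scale differed. Cxcl1, at 101 ± 6.57 per kilobase and 95.7 in its lowest library, then stood above Cxcl5, at 82.2 ± 9.04 and 89.6 in its highest library, whereas in vehicle its highest library, at 70.7, was below the lowest of Cxcl5, at 76.6. Ccl28, at 32.9 ± 1.59 with 34.4 in its highest library, stood below Ccl25, at 54.3 ± 12.6 with 45.2 in its lowest library. Cxcl16 (1457 ± 111) and Cx3cl1 (210.0 ± 13.4) remained the most abundant, Cxcl10 was at 21.0 ± 7.10, Ccl20 and Cxcl2 at 7.89 ± 4.21 and 7.65 ± 2.81, and Cxcl9 at 0.632.

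Cxcl16 made up 58.7, 60.4 and 59.3% of the summed level per kilobase of the 10 genes in vehicle and 72.8, 74.8 and 73.6% in 4-OHT. The summed level itself was 1217, 1231 and 1195 in vehicle and 1883, 2117 and 1925 in 4-OHT. Both were higher in every 4-OHT library (exact permutation test, two-sided, p = 0.10 for each, the smallest value that 3 against 3 libraries allow). Neither is a result separate from that of Cxcl16. Its mean per kilobase went from 723 to 1457, while the mean sum went from 1214 to 1975. Because the shares add up to a fixed total, those of other genes become smaller as that of Cxcl16 grows. The share of Cx3cl1 was thus 15.5% in vehicle and 10.7% in 4-OHT although its level per kilobase was 188 and 210.0, and that of Cxcl1, which also rose, was 4.83 and 5.14%.

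**Figure D4:**
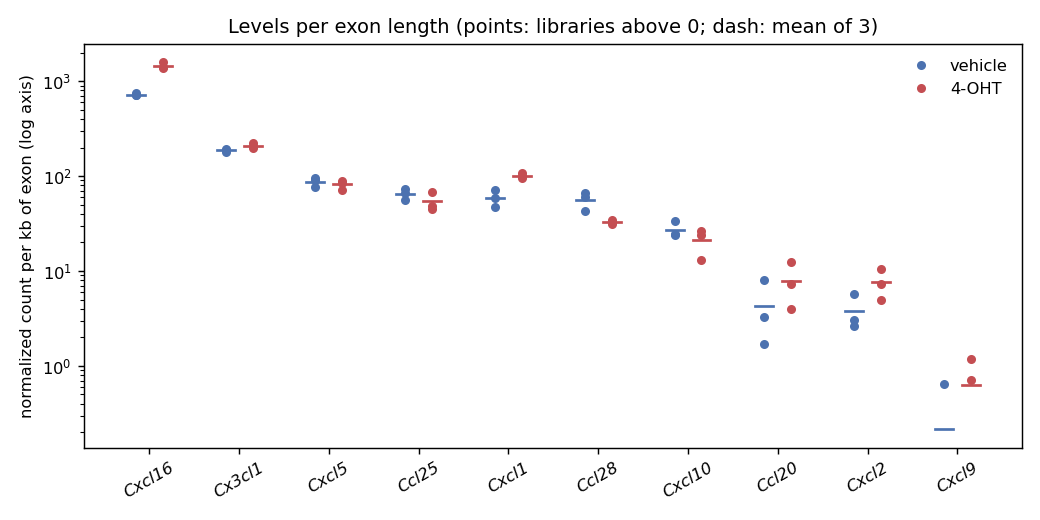
Normalized count per kilobase of exon (y axis, log scale) of each chemokine in vehicle (blue) and 4-OHT (red), with a point for each library above 0 and a dash for the mean of 3 libraries. Cxcl16 is highest in both groups, and Cxcl1 lies below Cxcl5 in vehicle and above it in 4-OHT.

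The chemokine family beyond these 10 genes was mostly silent. Of 28 further chemokine genes, 22 were measured, 16 of them did not reach a mean of 10, and of the 6 tested 2 rose and none fell, or 33.3% called beside 43.6% of all genes tested. Both that rose were Ppbp, given above, and Ccl9, a ligand of CCR1, with 63.4, 69.5 and 67.8 normalized counts in vehicle and 139, 115 and 148 in 4-OHT (log2 fold change 0.99 ± 0.16 SE, limma adjusted p = 4.2e-05). The other 4 tested were Cxcl11, a CXCR3 ligand (0.80, limma adjusted p = 0.065), Ccl5 (0.06), Ccl6 (-0.01) and Ccl27a (-0.13). The median log2 fold change of the 6 was 0.43. With 4-OHT replicate 1 alone, only Ccl9 was called (1.05, limma adjusted p = 0.0019).

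The receptors of the epithelial chemokines, which sit mainly on leukocytes, were at the edge of detection. Cxcr2, Cxcr3, Cxcr6, Ccr9, Ccr10 and Cx3cr1 had between 0 and 10 reads in any library, and none was tested. Among 18 measured receptors, 3 were tested, and Ackr3, a scavenging receptor for Cxcl11 and Cxcl12, rose from 4.66, 7.09 and 19.4 to 20.7, 22.8 and 31.9 normalized counts (log2 fold change 1.39 ± 0.44 SE, limma adjusted p = 0.014). That call was lost without vehicle replicate 1 (1.00, limma adjusted p = 0.077), without 4-OHT replicate 3 (1.22, limma adjusted p = 0.070) and with 4-OHT replicate 1 alone (1.15, limma adjusted p = 0.21). Ccr1 and Ccrl2 had log2 fold changes of -0.02 and -0.20 and did not pass.

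Of the proteases that act on chemokines, those that shed Cxcl16 and Cx3cl1 differed little. Adam10, the main constitutive sheddase of both, had 4070 ± 188.9 normalized counts in vehicle and 4417 ± 199.5 in 4-OHT (log2 fold change 0.12 ± 0.05 SE, limma adjusted p = 0.057, and 0.024 without 4-OHT replicate 1). Adam17, the inducible sheddase, fell from 1323 ± 46.8 to 1192 ± 25.4 (-0.15 ± 0.06 SE, limma adjusted p = 0.033). That fall did not pass with each of vehicle replicates 2 and 3 and 4-OHT replicates 1 and 2 left out in turn, where the limma adjusted p lay between 0.063 and 0.14, nor with 4-OHT replicate 1 alone (limma adjusted p = 0.13). Furin, which activates such proteases, rose by 0.42 ± 0.05 (SE) on the log2 scale (limma adjusted p = 3.3e-07). Dpp4, which trims Cxcl10, had 1 to 13 reads and was not tested.

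The NF-κB genes, through which Cxcl1, Cxcl2, Cxcl5 and Ccl20 are known to be induced, were mostly higher in 4-OHT. Of 13 subunits, inhibitors and feedback targets tested, 10 rose, 1 fell and 2 did not pass, with a median log2 fold change of 0.39. That is 84.6% called beside 43.6% of all genes tested, but the list was chosen with earlier results of these data known. Tnip1 (0.70 ± 0.05 SE), Nfkbie (0.66 ± 0.15) and Tnfaip3 (0.56 ± 0.06), which restrain the pathway, rose, as did the subunit genes Nfkb2 (0.48 ± 0.05) and Relb (0.42 ± 0.06), with limma adjusted p-values between 1.5e-09 for Tnip1 and 0.0014 for Nfkbie. Nfkbiz, which encodes a co-activator of secondary NF-κB targets, fell by 0.28 on the log2 scale (limma adjusted p = 0.028), but its groups overlapped and the call was lost without vehicle replicate 1 (limma adjusted p = 0.17), vehicle replicate 2 (0.084) or 4-OHT replicate 1 (0.12) and with quantile normalization (0.067). Nfkbia and the subunit gene Rel, at -0.05 and -0.23, did not pass.

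The receptors and adaptors that carry IL-17, IL-1, TNF and Toll-like receptor signals were mixed. Of the 14 tested, 3 rose, 2 fell and 9 did not pass, with a median log2 fold change of 0.03, and the 35.7% called stand beside 43.6% of all genes tested. Tnfrsf1b, a TNF receptor, rose by 0.32 ± 0.06 (SE, limma adjusted p = 2.2e-04) and Tlr4, which senses lipopolysaccharide, by 0.37 ± 0.07 (limma adjusted p = 3.7e-04), while the adaptor Traf6 fell (-0.25 ± 0.06, limma adjusted p = 0.0024). Il1r1 (0.41 ± 0.15) and Tlr2 (-0.30 ± 0.11) also passed (limma adjusted p = 0.031 and 0.024), but neither call held without vehicle replicate 3 or without 4-OHT replicate 3, where 3 of the 14 genes passed, and that of Il1r1 did not hold without 4-OHT replicate 2. With 4-OHT replicate 1 alone Il1r1 was at 0.15 (limma adjusted p = 0.64) and Tlr2 at -0.30 (limma adjusted p = 0.14). Il1r1 also missed the threshold under DESeq2 (adjusted p = 0.056), and Tlr2 with quantile normalization (limma adjusted p = 0.058).

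Of 17 genes of interferon sensing and response, the axis that governs Cxcl9 and Cxcl10, 8 rose, 1 fell and 8 did not pass, and their median log2 fold change was 0.22. The 52.9% called stand beside 43.6% of all genes tested. Irf7 (0.62 ± 0.16 SE) and Irf9 (0.39 ± 0.10), factors of the interferon response, and the receptor and kinase genes Ifngr1 (0.28 ± 0.05) and Jak2 (0.26 ± 0.06) were among those that rose, with limma adjusted p-values between 1.4e-04 for Ifngr1 and 0.0033 for Irf7. The groups overlapped for Irf7 (155 to 267 in vehicle, 252 to 359 in 4-OHT). All genes that passed encode receptors, kinases or transcription factors. None of the induced effector genes of the list passed, though all pointed upward. Stat2 fell by 0.24 on the log2 scale (limma adjusted p = 0.032), a call lost without vehicle replicate 1 (limma adjusted p = 0.25), 4-OHT replicate 1 (0.095) or 4-OHT replicate 3 (0.055) and with quantile normalization (0.057). Irf1, an activator of both chemokines, was at -0.08 and did not pass with all libraries (limma adjusted p = 0.31) but did with 4-OHT replicate 1 alone (limma adjusted p = 0.042). With 4-OHT replicate 1 alone, the library in which Cxcl10 was lowest, 4 of the 17 genes passed, and Irf7 (0.31, limma adjusted p = 0.30), Irf9 (0.34, 0.078), Jak2 (0.20, 0.052) and Stat2 (-0.33, 0.053) were not among them.

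Other cytokines of epithelial cells rose beside Cxcl16 and Cxcl1. Of 14 listed, 12 were measured and 9 were tested, of which 6 rose and none fell, with a median log2 fold change of 0.84. These 66.7% stand beside 22.7% of all genes tested that rose, for a list also chosen with earlier results of these data known. Csf2, the growth factor GM-CSF, had 20.5, 14.9 and 19.4 normalized counts in vehicle and 74.4, 66.3 and 75.1 in 4-OHT (log2 fold change 1.93 ± 0.24 SE, limma adjusted p = 2.2e-06). Csf1, a macrophage growth factor (1.19 ± 0.16), Lif, an IL-6 family cytokine (1.10 ± 0.06), Il18 (0.99 ± 0.08) and Tnf (0.84 ± 0.07) rose with limma adjusted p-values of 5.2e-06 or less, and the alarmin Il33 by 0.35 ± 0.13 (limma adjusted p = 0.038). The call of Il33 was lost under DESeq2 (adjusted p = 0.055), without any filter (limma adjusted p = 0.0503), with 4-OHT replicate 1 alone (0.18) and with each of vehicle replicates 1 and 2 and 4-OHT replicates 1 and 3 left out in turn (0.055 to 0.20). Tnf, itself an inducer of Cxcl1, had 369, 375 and 390 normalized counts in vehicle and 670.5, 662 and 706 in 4-OHT. The 3 tested cytokines that did not pass were Il1a (0.44), Il15 (0.24) and Il7 (-0.48).

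**Figure D5:**
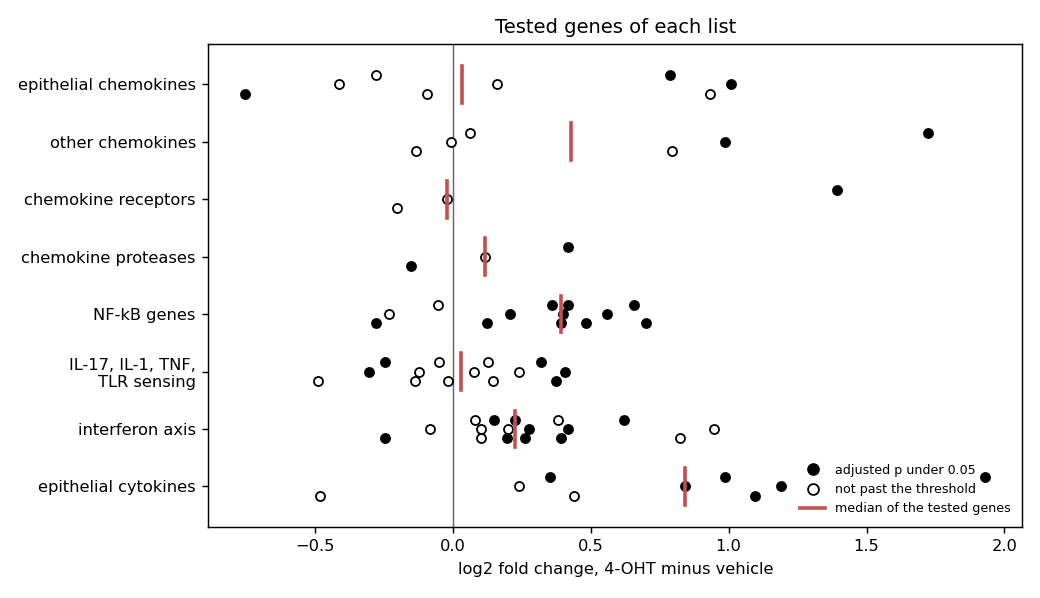
Each point is a tested gene, placed by its log2 fold change of 4-OHT against vehicle on the log2(normalized count + 1) scale (x axis) and grouped by list (y axis), filled where the limma adjusted p was under 0.05, with a red bar at the median of the list. The epithelial chemokines lie on both sides of 0 around a median of 0.03, while the medians of the NF-κB genes (0.39) and epithelial cytokines (0.84) lie above 0.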

How the data were processed

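RNA was sequenced from 3 vehicle and 3 4-OHT colon organoid libraries, grouped by the labelled treatment. The submitters' processing notes name STAR, DESeq2 and the builds GRCm39 and mm39, while the counter, its strand setting and the annotation are not given in the sources used here. The deposited values are a signal that the authors made by dividing whole read counts by a size factor for each library. Within 0.1 reads, 100% of the values of a library were multiples of a common step, which gave back the counts. They summed to 20383663, 26957612 and 15804709 reads in vehicle replicates 1 to 3 and 19268649, 19588575 and 17603040 in 4-OHT replicates 1 to 3. The floor of 3 reads, 2.13 to 3.63 normalized counts, and counting errors cover counting only. Of 25067 entries, 1754 were 0 in every library and 4 symbols occurred more than once.

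Groups were compared with limma-trend (limma 3.58.1, R 4.3.3) on log2(normalized count + 1) over the 13210 entries with a mean of at least 10, two-sided, with Benjamini-Hochberg adjustment over all of them and a threshold of 0.05. Fold changes on this scale understate the change of low genes. The code was tested on simulated data. Alternatives were pseudocounts of 0.1 and 10, no filter and a minimum mean of 50, TMM, quantile normalization, a replicate block, each library left out, and the count tests of edgeR 4.0.16 and of DESeq2 1.42.0. The fit with 4-OHT replicate 1 alone was added after the data had been seen, and there the lone library is assumed to vary like the vehicle group.

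Levels per kilobase used the union of exons in GENCODE vM21 (GRCm38), which is not the submitters' build, and promoters came from RefSeq (GRCm38.p6). The chemokines and all lists were chosen with earlier results of these data known. All 10 chemokines are named. From each other list, up to 5 called genes with the largest log2 fold changes are named, as are 7 receptors of the chemokines (Ccr6 among them, not analysed here), Adam10, Adam17 and Dpp4, except that some genes of the lists are not reported here. Other names (Zmynd15, Elavl1, Cxcl3, Cxcl11, Ccl5, Ccl6, Ccl27a, Ccr1, Ccrl2, Nfkbiz, Nfkbia, Rel, Stat2, Irf1, Il33, Il1a, Il15 and Il7) were picked after their values were seen.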

Additional observations from a re-analysis of the deposited data

How the results depend on the processing

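Cxcl16, Cxcl1 and Ccl28 passed under all 15 alternatives run on the 6 libraries or on 5 of them, with log2 fold changes of 0.95 to 1.05, 0.64 to 0.93 and -0.94 to -0.62. Over the 8 tested chemokines, 121 of 124 values had the same direction and call, 3 newly passed (Cx3cl1 without 4-OHT replicate 3, and Cx3cl1 and Cxcl10 with 4-OHT replicate 1 alone) and none changed direction. Cxcl2 and Cxcl10 gave no value at a minimum mean of 50, nor did Cxcl2 without 4-OHT replicate 2 or with 4-OHT replicate 1 alone, where their means were below the limit. For 28 other named genes, 419 of 444 values kept their call, 24 lost it, 1 gained it and none changed direction. Fits with 4-OHT replicate 1 alone, which used 4 libraries, called 5 of the chemokines, 1 of the other chemokines, 0 receptors and 4 interferon genes. At a minimum mean of 50, where fewer genes are tested, 1 other chemokine and 0 receptors passed. Leaving out 1 library gave 0 to 1 receptors and 3 to 5 sensing genes.

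Replicate numbers are shared by the groups, but deviations of same-numbered libraries correlated by only -0.007, 0.030 and -0.020, so the numbers were not taken as pairs. With the replicate number as a block, 5637 genes passed against 5765 without it, 3 of the chemokines among them, and Adam17 no longer did (limma adjusted p = 0.053). Over all genes the count lay between 4946 and 5780 for the alternatives with 5 or 6 libraries, and edgeR gave 5780 and DESeq2 5208. Depth limits Cxcl2, Ccl20 and Cxcl9, which had at most 19 reads in any library.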
